A study of Mus musculus with 6 samples.

Results

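Glycolysis converts glucose to pyruvate and, in many tumour cells, on to lactate even when oxygen is present. Hypoxia-inducible factors (HIFs) are pairs of an oxygen-sensitive alpha subunit and the stable subunit ARNT that switch on glucose transporters, most glycolytic enzymes and other genes of the response to low oxygen. With oxygen, prolyl hydroxylases mark the alpha subunit and the VHL protein then tags it for degradation, so that much of HIF control acts on protein and not on mRNA. The 34 genes described here span this system: 2 glucose transporters, 17 enzymes of the pathway, 3 regulators of its flux, 2 lactate transporters, 3 HIF subunits, 3 genes of HIF degradation and 4 HIF-induced genes outside glycolysis. They were chosen by gene symbol and known role, with earlier results of these data known. All 34 were among the 43548 genes of the deposited expression table.

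Met-1 TripZ-200c cells are a mouse mammary carcinoma line of FVB/nJ strain background, derived from a late-stage MMTV-PyMT tumour. They carry pTripZ, a lentiviral vector that produces the miR-200c precursor, together with a red fluorescent protein, when doxycycline (Dox) is present. MiR-200c is a microRNA known for holding cells in an epithelial state. In the Minus Dox group, 3 cultures received the vehicle, water, for 48 h, and in the Plus Dox group 3 cultures received 1 µg/mL Dox for 48 h. Both groups carried the same vector, came from the same sorted clone and were plated in triplicate, so the spread between libraries is that of parallel cultures of 1 clone. The sources differ on the medium, which sets the glucose supply (DMEM for upkeep in the labels and methods, RPMI during treatment in the labels), and on the time, where a figure legend of the study implies a longer treatment than the 48 h of the labels and methods. No empty-vector libraries were analysed here, so that an effect of Dox itself and an effect of the induced miR-200c cannot be told apart. No source used here names a difference in oxygen or glucose between the groups.

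Levels are given in FPKM, fragments scaled to transcript length and library size, so that genes can be compared per length. A gene was tested where its mean over the 6 libraries was at least 1 FPKM, which left 12879 genes. Changes are log2 fold changes of FPKM + 0.1, Plus Dox over Minus Dox, with their standard error (SE), and a gene was called where the Benjamini-Hochberg adjusted p of limma, over all 12879 genes, was under 0.05. The added 0.1 slightly understates changes of low genes. The libraries held 16867 to 18012 genes above 0, their FPKM summed to between 800267 and 815139, and their depth, read from the ratio of values under 0.1 FPKM, ranged from 0.927 to 1.48 times that of the first Minus Dox library. Read totals were not given in the sources used here. The microRNA target gene Zeb2, a repressor of epithelial genes, had 29.4, 30.7 and 27.9 FPKM without Dox and 7.82 to 9.04 FPKM with Dox (log2 fold change -1.81, limma adjusted p = 4.48e-05), while the miR-200c gene was listed at 0 in all 6. Of 13 markers of other cell types, 7 were listed at 0 in all libraries and 3 reached a mean of 1 FPKM (Pdgfra, Cd68 and Cdh5). Their sum was 29.8 to 34.4 FPKM without Dox and 26.1 to 27.6 FPKM with Dox, and its part in the results below was not tested. The progesterone receptor gene Pgr was listed at 0 in all libraries, and the estrogen receptor gene Esr1 had 12.6 to 18.6 FPKM. In RNA from whole cultures, fewer cells of a type and less RNA per cell cannot be told apart.

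The induced microRNA acts through its seed, bases 2 to 8, which pairs with the letters CAGTATT in the 3′ UTRs of target mRNAs. Its mature sequence, from RefSeq (GRCm38.p6, chr6:124718324-124718346, minus strand), is shown with the seed in capitals because matches to it were looked up in every gene of the list.
mmu-miR-200c-3p: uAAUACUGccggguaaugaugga
In the longest 3′ UTR of each gene in the GENCODE M21 annotation, 4 of the 34 genes held such a match, at 5 places. They are printed in 30-base windows, 5′ to 3′ on the mRNA in DNA letters, with the match to the full seed in capitals. Shorter matches and other parts of the mRNAs were not searched.
Slc2a3, 1888 bases after the stop codon: gtgctcggtttCAGTATTcaactctccact
Slc16a1, 806 bases after the stop codon: tttaatgtatgCAGTATTtcaagcagcagc
Slc16a1, 1127 bases after the stop codon: acattgtttttCAGTATTtgcaaaaccacg
Hif1a, 1452 bases after the stop codon: gtacaaaccttCAGTATTtgcagtatgaat
Egln1, 418 bases after the stop codon: aaaaaaatttaCAGTATTattctcaaaata
None of these 4 genes was called, though Slc2a3 was too low to be tested. None of the 5 called genes described below held a match. Among the tested genes of the list 3 of 29 (10.3%) had one, beside 1738 of 10793 (16.1%) of all tested genes with an annotated 3′ UTR and 300 of the 963 (31.2%) that were lower with Dox. A match is a string of letters and does not show that a site is used.

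HIFs bind DNA at a short core, searched here as ACGTG or GCGTG on both strands, where overlapping matches were allowed. It was looked up in RefSeq promoter windows of 300 bases (GRCm38.p6), 250 before and 50 after each transcript start, and 28 of the 32 genes with a window held at least 1 match, in 36 of 47 windows (76.6%). Of all 32851 RefSeq windows of this length 14380 (43.8%) held one, as did at least 1 window of 12628 of all 27025 genes. The letters are thus common, though the share was larger in the list. Some windows of 1 gene overlap, so that a match can be counted more than once. Slc2a3 and Epas1 had no window. The windows of the 3 genes that rose with Dox are printed beside the first of Ldha, which did not pass the test, 5′ to 3′ on the gene's strand with matches in capitals.
Ldhb, chr6:142507908-142508207, minus strand: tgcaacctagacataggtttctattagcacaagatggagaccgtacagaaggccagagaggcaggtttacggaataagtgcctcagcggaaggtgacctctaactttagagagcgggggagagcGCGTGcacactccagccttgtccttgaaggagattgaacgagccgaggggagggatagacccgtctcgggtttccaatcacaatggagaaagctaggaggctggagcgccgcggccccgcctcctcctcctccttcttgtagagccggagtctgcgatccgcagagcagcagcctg
Hk2, chr6:82774405-82774704, minus strand: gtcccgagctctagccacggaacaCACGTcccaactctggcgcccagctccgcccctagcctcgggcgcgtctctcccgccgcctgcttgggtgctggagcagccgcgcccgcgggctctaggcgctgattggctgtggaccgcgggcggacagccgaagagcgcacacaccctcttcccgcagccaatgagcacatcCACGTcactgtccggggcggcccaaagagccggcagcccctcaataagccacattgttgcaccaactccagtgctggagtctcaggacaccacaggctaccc
Car9, chr4:43506776-43507075, plus strand: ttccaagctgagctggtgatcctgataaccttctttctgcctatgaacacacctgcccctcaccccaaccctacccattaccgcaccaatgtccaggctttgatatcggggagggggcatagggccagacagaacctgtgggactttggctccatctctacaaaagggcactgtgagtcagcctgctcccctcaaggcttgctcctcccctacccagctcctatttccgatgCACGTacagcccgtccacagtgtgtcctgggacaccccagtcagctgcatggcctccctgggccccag
Ldha, chr7:46845554-46845853, plus strand: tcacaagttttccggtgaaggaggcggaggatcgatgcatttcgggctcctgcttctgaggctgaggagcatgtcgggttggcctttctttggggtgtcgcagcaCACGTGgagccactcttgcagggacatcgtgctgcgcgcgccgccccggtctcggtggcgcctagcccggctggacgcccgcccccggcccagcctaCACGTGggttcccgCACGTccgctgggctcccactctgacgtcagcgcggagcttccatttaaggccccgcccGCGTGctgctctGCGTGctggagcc
The Ldha window held 7 matches (pairs on opposite strands overlap), that of Hk2 held 2, and those of Ldhb and Car9 held 1 each. A match is a description of these letters and not a bound site. Of the 2 genes that fell, Egln3 held 1 match in its window and Hk1 held 0 and 5 in its 2 windows.

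Most tested genes of the system were not called, and the changes that were called were small. Of the 34 genes 29 were tested and 5 were called (17.2%), beside 15% of all genes tested. Ldhb, Hk2 and Car9 rose, 3 genes where 7.06% of all tested genes rose, and Hk1 and Egln3 fell, 2 genes where 7.97% of all tested genes fell. The share called was thus near the background. No change reached 1.5-fold, and 11963 of all genes tested (92.9%) were under it too, as were 1483 of the 1935 called. In 9 of the 29 genes (31.0%) the 3 values with Dox lay wholly above or below the 3 without, beside 35% of the tested genes with 6 values. The 95% interval of the log2 fold change lay within ±0.25, or 1.19-fold, for 16 of 29 genes (55.2%) and for 3945 of all genes tested (30.6%). The median log2 fold change was -0.01 in the list and 0.00 over all genes tested.

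**Figure D1:**
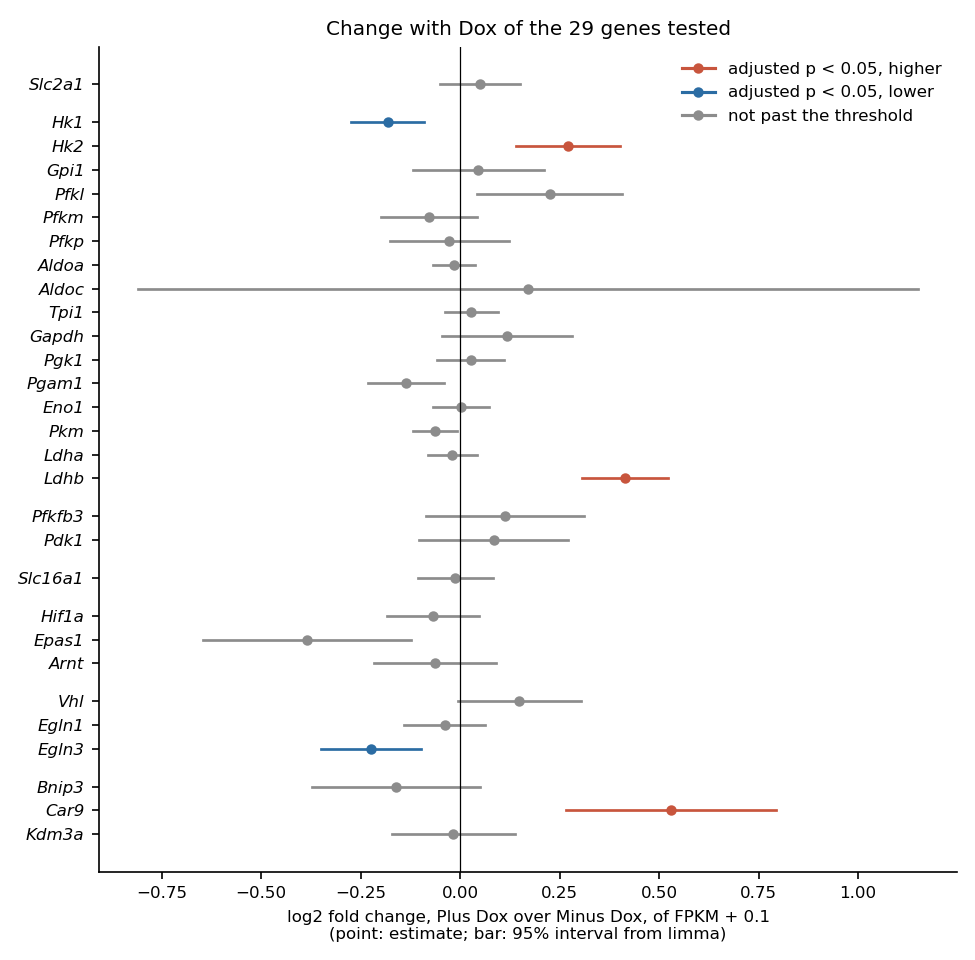
Log2 fold change (Plus Dox over Minus Dox, FPKM + 0.1) of the 29 tested genes on the horizontal axis, grouped from top to bottom as transporters, enzymes, flux regulators, lactate transporter, HIF subunits, HIF degradation and HIF-induced genes. Points are estimates and bars 95% intervals from limma. Ldhb, Hk2 and Car9 lie to the right of 0 and Hk1 and Egln3 to the left, while most enzymes have short bars across or near 0.

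At the entry to the pathway, the glucose transporter gene Slc2a1 (GLUT1) did not pass the test. It had 54.7, 55.0 and 52.1 FPKM without Dox and 54.3, 56.2 and 56.8 FPKM with Dox. The groups overlapped, and the log2 fold change was 0.05 with a 95% interval from -0.05 to 0.15. Slc2a3 (GLUT3) was listed at 0 in 3 of the 6 libraries and reached no more than 0.0804 FPKM, so that no fold is given.

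Hexokinase, which traps glucose in the cell as glucose 6-phosphate, changed in its 2 isoforms in opposite directions. Hk1 (chr10:62268855-62379908), the broadly expressed isoform, had 168, 156 and 167 FPKM without Dox and 143, 144 and 146 FPKM with Dox. All 3 Plus Dox values were below the lowest Minus Dox value, and Hk1 fell (log2 fold change -0.18, SE 0.04, limma adjusted p = 0.0213). Hk2 (chr6:82725025-82774454), the isoform known for its induction in tumours and by HIF, had 15.6, 15.4 and 15.8 FPKM without Dox and 18.5, 19.3 and 18.8 FPKM with Dox. The groups did not overlap, and Hk2 rose (log2 fold change 0.27, SE 0.06, limma adjusted p = 0.0188). Hk1 stayed by far the more abundant mRNA per length. The Hk2 share of the FPKM sum of both isoforms was 8.71% ± 0.26 (SD, n = 3) in Minus Dox and 11.6% ± 0.21 (SD, n = 3) in Plus Dox libraries, and that sum was 179 ± 6.82 and 163 ± 1.74 FPKM (SD, n = 3). Share and sum each had separate groups, with a two-sided exact permutation p of 0.1, the smallest that 3 against 3 libraries can give. The Hk1 call was lost when any library other than Minus Dox 2 was left out (limma adjusted p 0.0622 to 0.0669), and the Hk2 call without Minus Dox 1, Minus Dox 2, Plus Dox 2 or Plus Dox 3 (limma adjusted p 0.0521 to 0.0738). An antisense gene, Hk1os, overlaps Hk1, and the sources used here do not say whether reads were assigned by strand.

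Phosphofructokinase, the main control point of the pathway, is made from 3 genes, and none was called. Pfkl, the liver type, had 108, 108 and 127 FPKM without Dox and 125, 143 and 133 FPKM with Dox. Minus Dox 3 lay above Plus Dox 1, so the groups overlapped, and the log2 fold change was 0.22 with a limma adjusted p of 0.103. Without Minus Dox 3 it was 0.30 and was called (limma adjusted p = 0.037). Pfkm, the muscle type, averaged 65.3 ± 3.19 and 61.9 ± 2.28 FPKM (SD, n = 3), and Pfkp, the platelet type, averaged 49.3 ± 2.97 and 48.3 ± 2.68 FPKM (SD, n = 3). As shares of the summed FPKM of the 3 genes, Pfkl was 49.9% ± 2.60 without and 54.8% ± 1.57 with Dox and Pfkm was 28.6% ± 2.33 and 25.4% ± 0.421 (SD, n = 3). Both shares had separate groups, at the smallest two-sided exact permutation p of 0.1, while the Pfkp share overlapped. Separate groups were also found in 35% of the single tested genes with 6 values. The shares within the pairs Aldoa and Aldoc, Eno1 and Eno2, Pfkfb3 and Pfkfb4, Slc2a1 and Slc2a3, and Slc16a1 and Slc16a3 overlapped.

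**Figure D2:**
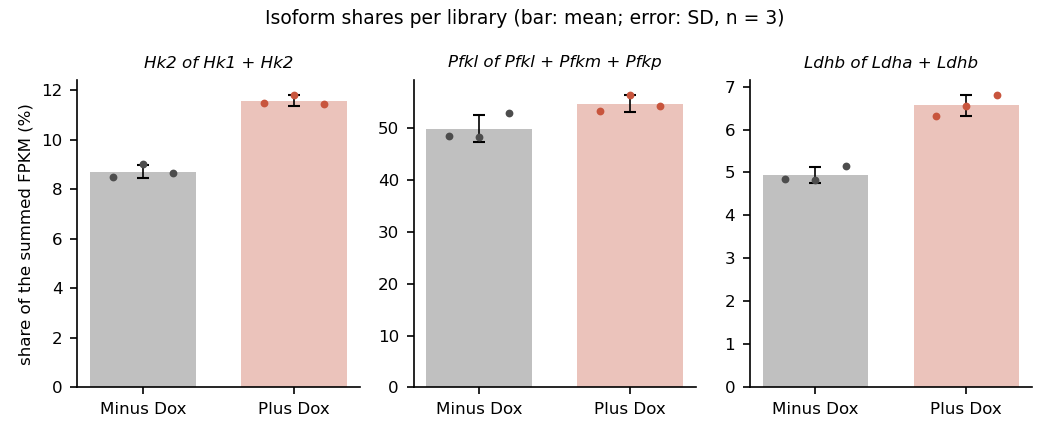
Share (percent) of 1 isoform in the summed FPKM of its enzymatic step in each library, for Hk2 of the hexokinases, Pfkl of the phosphofructokinases and Ldhb of the lactate dehydrogenases. Bars are means of 3 libraries, error bars SD and points single libraries. In each panel the 3 Plus Dox points sit above the 3 Minus Dox points. Of the steps compared, these are the ones where isoform shares had separate groups.

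The steps between fructose bisphosphate and pyruvate included the genes with the highest listed levels of the system, Pkm and Aldoa. Pkm, pyruvate kinase, averaged 3071 FPKM over the 6 libraries and ranked 12 of the 12879 tested genes, Aldoa, the main aldolase, averaged 1366 FPKM and ranked 48, and Tpi1, triose phosphate isomerase, averaged 610 FPKM and ranked 135. Pkm had 3144, 3139 and 3135 FPKM without Dox and 2921, 3079 and 3010 FPKM with Dox. The 3 Plus Dox values were the lower ones, yet the log2 fold change was -0.06 with a limma adjusted p of 0.122, and under quantile normalization it was 0.05. The table holds 1 value per gene, and the splice forms of Pkm were not separated in it. Aldoa moved by -0.02 (95% interval -0.07 to 0.04), Tpi1 by 0.03 (-0.04 to 0.10), Pgk1, phosphoglycerate kinase, by 0.03 (-0.06 to 0.11) and Gpi1, glucose phosphate isomerase, by 0.05 (-0.12 to 0.21), all log2 fold changes with overlapping groups. Pgam1, phosphoglycerate mutase, had 98.1, 95.7 and 96.4 FPKM without Dox and 84.2, 90.3 and 89.6 FPKM with Dox. Its groups were separate, lower with Dox, but it did not pass the test (log2 fold change -0.14, limma adjusted p = 0.0659). Eno1, enolase, averaged 418 ± 7.43 and 419 ± 10.3 FPKM (SD, n = 3), a log2 fold change of 0.00 with an interval from -0.07 to 0.07. The minor isoforms Aldoc and Eno2 averaged 1.02 and 0.949 FPKM over all libraries. Aldoc passed the filter only through its Plus Dox mean of 1.10 FPKM, and its interval, from -0.81 to 1.15, allowed changes in either direction.

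Gapdh and Eno1 need a separate word, because much of their sequence also lies in other loci. Gapdh, glyceraldehyde phosphate dehydrogenase and a common reference gene, was listed at only 47.7 FPKM, and 88.0% of its transcript lies in stretches of at least 50 bases with 95% identity to other genes. The processed pseudogene Gm13394 (chr2:28933610-28934609) was listed at 1018, 1018 and 973 FPKM without Dox and 1093, 1131 and 1076 FPKM with Dox. Gapdh itself had 41.9, 46.5 and 49.0 FPKM without Dox and 50.3, 46.9 and 51.7 FPKM with Dox, with overlapping groups and no call (log2 fold change 0.12, limma adjusted p = 0.321). Summed over Gapdh and the 66 sharing genes in the table, the level was 1107 ± 29.2 FPKM without and 1210 ± 25.3 FPKM with Dox (SD, n = 3), a log2 fold change of 0.13 that passed the test (limma adjusted p = 0.0261); this sum was added after the values were seen. Of the Eno1 transcript 85.6% is shared, Eno1b was listed at a mean of 590 FPKM, and the pseudogene Gm4735 was listed at 651 FPKM. Summed over Eno1 and its sharing genes, the level was 1646 ± 17.5 FPKM without and 1674 ± 47.0 FPKM with Dox (SD, n = 3). That sum was not called (log2 fold change 0.02, limma adjusted p = 0.612). How reads were assigned among such loci was not examined. Pgk1, Pkm, Ldha, Gpi1, Bnip3 and Pgam1 share 68.8%, 65.5%, 55.0%, 55.4%, 94.2% and 43.1% of their transcripts with other genes. These percentages do not give the size of an error in the listed levels. The genes that share 50% or more with Pkm, Ldha and Bnip3 had no listed level. Pgk1-rs7 averaged 5.22 FPKM, Gm1840, which shares sequence with Gpi1, 187 FPKM and Pgam1-ps2 44.2 FPKM. Hk2, Egln3, Epas1, Aldoa and Pfkl share none and Hk1 3.67%.

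At the last step, lactate dehydrogenase, Ldhb gave the smallest adjusted p of the system and Ldha did not pass the test. Ldha, the subunit known for turning pyruvate into lactate, had 1312, 1268 and 1283 FPKM without Dox and 1276, 1295 and 1239 FPKM with Dox. The groups overlapped (log2 fold change -0.02, 95% interval -0.08 to 0.04). Ldhb (chr6:142490249-142507957), the subunit of the heart-type enzyme, had 66.7, 64.1 and 69.7 FPKM without Dox and 86.0, 90.8 and 90.6 FPKM with Dox. All Plus Dox values were above all Minus Dox values, at 1.33 times their mean, and Ldhb rose (log2 fold change 0.41, SE 0.05, limma adjusted p = 0.00171). It was called in all 17 alternative settings, those that leave out 1 library included. The Ldhb share of both subunits' FPKM was 4.94% ± 0.191 without and 6.56% ± 0.247 with Dox (SD, n = 3), again with separate groups at a two-sided exact permutation p of 0.1. Of the Ldhb transcript 76.8% is shared with the processed pseudogene Gm5514 (chr19:21937380-21938381), which was listed at 47.5, 46.0 and 61.4 FPKM without Dox and 91.8, 76.4 and 91.7 FPKM with Dox. Gm5514 rose as well (log2 fold change 0.75, limma adjusted p = 0.00861), so that both loci moved the same way, and their sum went from 118 ± 11.1 to 176 ± 7.74 FPKM (SD, n = 3; log2 fold change 0.57, limma adjusted p = 0.00259).

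Of the pathway as a whole, 16 of the 17 pathway enzymes were tested, 2 rose (Ldhb and Hk2), 1 fell (Hk1) and 13 did not pass, so that 18.8% were called beside 15% of all genes tested. Their median log2 fold change was 0.01. The 17 enzymes together summed to 7776 to 7817 FPKM without Dox and 7553 to 7839 FPKM with Dox, 0.944% to 0.973% of all FPKM in a library. The groups overlapped, and the ratio of the means was 0.983 (two-sided exact permutation p = 0.4). This sum leaves out the loci that share sequence with the enzymes. Among them, Gm13394 averaged 1052 FPKM and was called higher with Dox (log2 fold change 0.13, limma adjusted p = 0.0269). That call was kept in only 6 of the 17 alternative settings. Gm4735 averaged 651 FPKM and was not called.

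**Figure D3:**
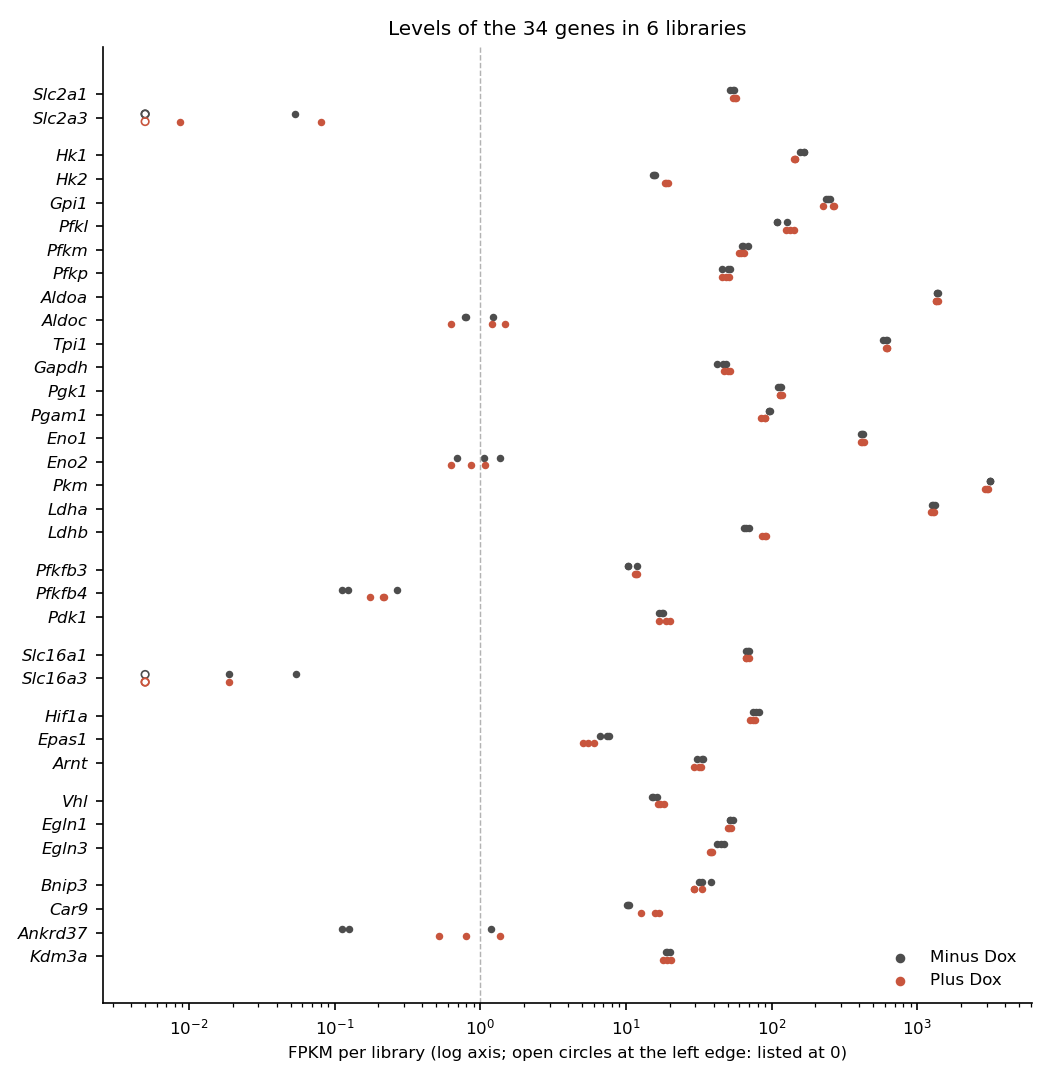
Level of each of the 34 genes in each library, in FPKM on a log axis, with Minus Dox in grey and Plus Dox in red. Open circles at the left edge are libraries in which the gene was listed at 0, and the dashed line marks 1 FPKM. Pkm, Aldoa and Ldha lie farthest to the right and Slc2a3 and Slc16a3 below 0.1 FPKM, and for most genes the grey and red points cover the same range.

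The genes that steer the flux were measured at low to moderate levels and none was called. Pfkfb3, which makes the activator of phosphofructokinase, had 10.3, 12.0 and 10.3 FPKM without Dox and 11.8, 11.8 and 11.5 FPKM with Dox (log2 fold change 0.11, 95% interval -0.09 to 0.31). Pdk1, the kinase that closes the entry of pyruvate into the mitochondria and a known HIF target, had 17.9, 17.6 and 16.8 FPKM without Dox and 18.9, 20.02 and 16.7 FPKM with Dox (0.08, -0.10 to 0.27). In both genes the groups overlapped. Pfkfb4, below the filter, ranged from 0.113 to 0.268 FPKM. Lactate leaves the cell through monocarboxylate transporters, of which Slc16a1 (MCT1) averaged 68.6 ± 1.42 and 68.0 ± 1.77 FPKM (SD, n = 3), with a log2 fold change of -0.01 (-0.11 to 0.08). Its 2 seed matches are shown above. Slc16a3 (MCT4), the HIF-induced exporter, was listed at 0 in 3 libraries and reached no more than 0.0542 FPKM. Slc2a1 and Slc16a1 held nearly all of the FPKM of their pairs, 99.859% and 99.921% in the library where each share was lowest.

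Among the HIF subunits none was called. Hif1a, the oxygen-sensitive subunit present in most cells, had 77.8, 74.9 and 81.5 FPKM without Dox and 71.3, 74.9 and 77.2 FPKM with Dox (log2 fold change -0.07, 95% interval -0.18 to 0.05), and the groups overlapped. Arnt, its partner, averaged 32.7 ± 1.81 and 31.3 ± 1.71 FPKM (SD, n = 3). Epas1 (HIF-2 alpha; chr17:86753700-86833410) had 7.60, 7.43 and 6.63 FPKM without Dox and 5.46, 6.01 and 5.05 FPKM with Dox. Each Plus Dox value was below each Minus Dox value, but the limma adjusted p was 0.0617 (log2 fold change -0.39, SE 0.11), and it passed only in the fit without a variance trend (limma adjusted p = 0.0487).

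Of the genes of HIF degradation, Egln3 was called. Egln1 (PHD2), the main prolyl hydroxylase of HIF, averaged 52.8 ± 1.58 and 51.4 ± 1.17 FPKM (SD, n = 3; log2 fold change -0.04, 95% interval -0.14 to 0.06). Egln3 (PHD3; chr12:54178981-54203860), a hydroxylase that is itself induced by HIF, had 42.2, 47.0 and 45.2 FPKM without Dox and 37.6, 39.1 and 38.2 FPKM with Dox. The groups were separate and Egln3 fell (log2 fold change -0.22, SE 0.05, limma adjusted p = 0.033). The call held without Minus Dox 1 and was lost when any other library was left out (limma adjusted p 0.0755 to 0.0995). Vhl, the recognition subunit of the ubiquitin ligase for hydroxylated HIF, had 15.1, 16.4 and 15.4 FPKM without Dox and 18.1, 17.2 and 16.7 FPKM with Dox, separate groups without a call (log2 fold change 0.15, limma adjusted p = 0.187).

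**Figure D4:**
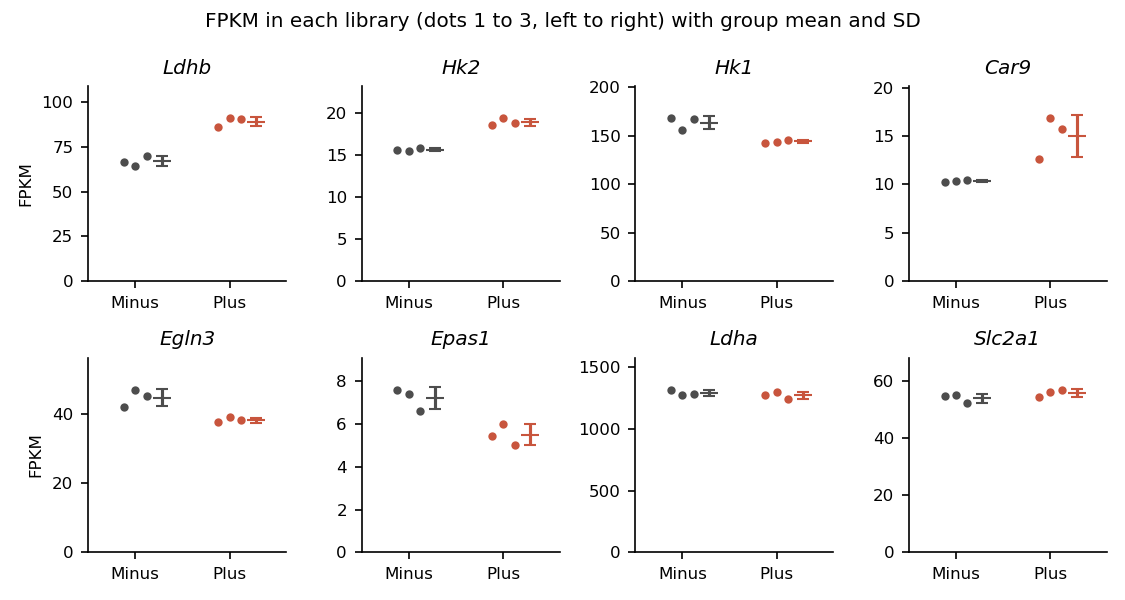
FPKM (vertical axes from 0, a scale for each gene) in each library of the 5 called genes and of Epas1, Ldha and Slc2a1, with Minus Dox in grey and Plus Dox in red. Points are libraries 1 to 3 from left to right, and the bar beside them is the group mean with its SD. Ldhb, Hk2 and Car9 are higher and Hk1, Egln3 and Epas1 lower in every Plus Dox library, and Ldha and Slc2a1 overlap.

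The HIF-induced genes outside glycolysis did not move together. Car9 (chr4:43506966-43513729), a carbonic anhydrase at the cell surface that handles acid and is a classical marker of hypoxia, had 10.2, 10.3 and 10.4 FPKM without Dox and 12.6, 16.8 and 15.7 FPKM with Dox. The 3 Minus Dox values lay close together, and the Plus Dox values were all higher and spread more widely. Car9 rose (log2 fold change 0.53, or 1.44-fold, SE 0.11, limma adjusted p = 0.0215), the largest change among the tested genes of the list. Without Plus Dox 1, the lowest of the treated libraries, the change was 0.65 (limma adjusted p = 0.00696), and without any other single library the call was lost (limma adjusted p 0.0619 to 0.0828). Bnip3, an inducer of mitochondrial autophagy, had 33.0, 31.6 and 38.2 FPKM without Dox and 29.1, 33.4 and 29.3 FPKM with Dox, overlapping groups with a log2 fold change of -0.16 (95% interval -0.37 to 0.05). Kdm3a, a histone demethylase, averaged 19.3 ± 0.535 and 19.1 ± 1.14 FPKM (SD, n = 3; -0.02, -0.17 to 0.14). Ankrd37, below the filter, had 0.126, 1.19 and 0.113 FPKM without Dox and 1.35, 0.795 and 0.522 FPKM with Dox.

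Pathway enzymes and HIF-induced genes were then set side by side. With Egln3 counted among the HIF-induced genes, 4 of 5 were tested, of which 1 rose and 1 fell, with a median log2 fold change of -0.09 beside 0.01 for the 16 enzymes. A wider list of 30 other HIF-induced genes, of which 27 were tested, held 5 that rose and 1 that fell. Ndrg1, a stress-induced gene of differentiation, had 26.3, 25.1 and 25.5 FPKM without Dox and 45.0, 43.5 and 44.6 FPKM with Dox (log2 fold change 0.79, limma adjusted p = 1.30e-04). Ero1l, an oxidase of protein folding in the endoplasmic reticulum, rose by 0.30 (limma adjusted p = 0.00946), Zfp395, a zinc finger gene, by 0.45 (0.0108) and P4ha2, a collagen prolyl hydroxylase, by 0.40 (0.0167), all log2 fold changes. Hmox1, heme oxygenase, also under control of the oxidative stress response, had 129, 117 and 126 FPKM without Dox and 86.6, 86.0 and 89.4 FPKM with Dox, and it fell (log2 fold change -0.50, limma adjusted p = 8.01e-04). Ndrg1, Ero1l and Hmox1 were called in all alternatives, whereas the P4ha2 call was lost without Minus Dox 3, Plus Dox 1 or Plus Dox 3 (limma adjusted p 0.0576 to 0.066). Of the 31 tested genes of both HIF-induced lists 6 rose and 2 fell (25.8%, beside 15% of all genes tested). Their median log2 fold change was 0.03. These lists leave out HIF targets that are counted elsewhere here, such as Slc2a1 and Pdk1, which were not called, and Hk2, which rose. The share called therefore holds for these lists only, which were drawn up with earlier results of these data known. Whether enzymes and HIF-induced genes differ in their response was not tested.

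**Figure D5:**
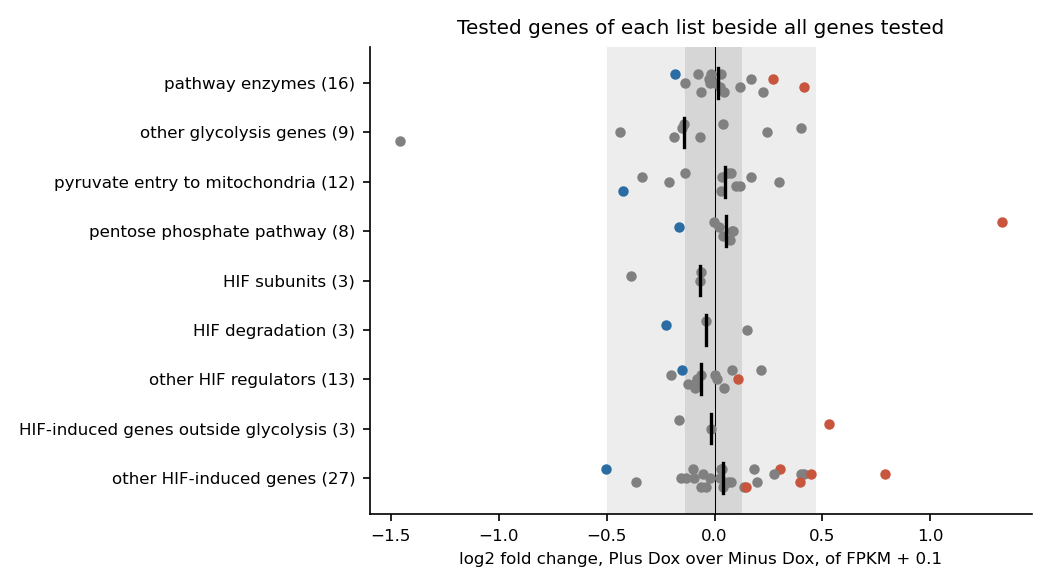
Log2 fold change (Plus Dox over Minus Dox, FPKM + 0.1) of every tested gene of 9 lists, with the number tested in parentheses. Red points rose and blue points fell at a limma adjusted p under 0.05, grey points did not pass, and black bars are list medians. The dark band holds the middle 50% and the light band the middle 90% of all genes tested, and most points, medians included, lie within the light band.

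Genes of neighbouring pathways are read against the same background, 15% of all genes tested. These lists, too, were drawn up with earlier results of these data known. Of 22 other glycolysis genes 9 were tested and 0 were called by limma, and 9 isoforms of other tissues were listed at 0 in all libraries. Of the 9 tested, 5 had an unadjusted limma p under 0.05, beside 3761 of all 12879 genes tested. The same held for 6 of the 16 pathway enzymes and 12 of the 27 other HIF-induced genes. The 5 other glycolysis genes were all lower with Dox. Their log2 fold changes ran from -0.14 to -1.46, the largest in a gene that averaged 1.00 FPKM. The median log2 fold change of the 9 was -0.14. Of 12 tested genes for pyruvate entry into the mitochondria 1 was called (8.33%), Pdp1, a phosphatase that reactivates pyruvate dehydrogenase. Pdp1 had 8.84, 8.94 and 9.30 FPKM without Dox and 6.82, 7.17 and 6.13 FPKM with Dox (log2 fold change -0.43, limma adjusted p = 0.0242), and the call held without Plus Dox 2 only (limma adjusted p 0.0583 to 0.0796 without any other library). Of 8 tested genes of the pentose phosphate pathway, which branches from glucose 6-phosphate, 1 rose and 1 fell (25%). Rpia, ribose 5-phosphate isomerase (chr6:70765720-70792232), had 22.2, 19.5 and 21.8 FPKM without Dox and 54.6, 52.3 and 53.5 FPKM with Dox. It rose (log2 fold change 1.33, limma adjusted p = 5.03e-05), a larger change than that of Car9, and was called in all alternatives. Taldo1, transaldolase, fell (log2 fold change -0.16, limma adjusted p = 0.0342), a call kept without Minus Dox 2 and lost without any other library (limma adjusted p 0.0812 to 0.101). Of 13 other tested HIF regulators 2 were called (15.4%). Rack1, which promotes HIF-1 alpha degradation without oxygen sensing, rose by 0.11 (limma adjusted p = 0.0269), and Cited2, a competitor of HIF for its coactivators, fell (log2 fold change -0.15, limma adjusted p = 0.0451). The Rack1 call was lost without any 1 of the 6 libraries (limma adjusted p 0.0582 to 0.0976), and the Cited2 call was kept without Minus Dox 1 only (0.0641 to 0.13 without the others).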

How the data were processed

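RNA was read as single 50-base reads from TruSeq Stranded libraries. Per the paper's methods, the authors mapped them with gSNAP to the mouse genome (GRCm38.p6 per the labels, FVB_NJ_v1 also named) and computed FPKM per gene with Cufflinks. The same file holds the authors' group means, p-values, signed fold change scores and false discovery rate scores, which were not used. Deposited FPKM of 6 libraries were used, 3 per group, as the labels give them. Of 43611 table lines 63 repeated a gene identifier, and 43548 genes were kept, the highest line of each; 6 placeholder values in 4 genes were treated as missing. FPKM carry no counts, so limma 3.58.1 (R 4.3.3; lmFit, eBayes with trend) was fitted to log2(FPKM + 0.1) of the genes that averaged 1 FPKM or more, with the group as the only term, after the authors' one-way ANOVA, and p-values were adjusted over all genes tested. Values of genes under that minimum come from a fit that kept every gene. Summed levels and shares were compared by two-sided exact permutation tests. Shared sequence was found with BLAST 2.17.0 (95% identity, 50 bases or more) against GENCODE M21 transcripts. The fit was tested on simulated data. The 34 genes and the other lists were chosen with earlier results of these data known. All 34 genes are named, and from the other lists up to 4 called genes per direction by p.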

Additional observations from a re-analysis of the deposited data

How the results depend on the processing

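The 34 genes were recomputed under 17 alternatives: a pseudocount of 1 or 0.01 FPKM, no filter, a minimum mean of 5 FPKM, quantile normalization, median scaling, no variance trend, a linear model per gene, the replicate number as a block, an adjusted p under 0.01, each library left out, and summed sharing genes, the last chosen after seeing the data. Ldhb was called in all 17, Hk2 in 11, Car9 in 10 and Hk1 and Egln3 in 8 each, without a change of direction. The count of genes that rose (3) became 1 at an adjusted p under 0.01 and 1 to 3 with a library left out. The count that fell (2) became 1 without the trend, 0 under the linear model, 0 at an adjusted p under 0.01 and 0 to 1 with a library left out. Pathway enzymes called (3) became 1 at an adjusted p under 0.01 and 1 to 3 with a library left out, and HIF-induced genes called (8) became 5 under the linear model, 3 at an adjusted p under 0.01 and 4 to 8 with a library left out. Genes not called (24) were 26 to 28 with a library left out. Over all genes the calls ran from 770 to 1992. Without Minus Dox 3 Pfkl was also called, under quantile normalization Pgam1 (log2 fold change -0.14), and without the trend Epas1 (-0.39). The cause of these differences was not tested, except that leaving out a library leaves fewer samples.

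Under quantile normalization Eno1 was at -0.0103 and Pkm at 0.0469, against the sign in the report. With a library left out, near-zero log2 fold changes turned sign: Eno1 ran from -0.0163 to 0.0187, Pfkp from -0.0765 to 0.0148, Slc16a1 from -0.0340 to 1.234e-04, Kdm3a from -0.0605 to 0.0256, Gpi1 from -8.724e-05 to 0.128 and Aldoc from -0.0601 to 0.495. None of these 6 genes was called in any setting.

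With the replicate number as a block, 0 genes of the list were called lower and 2 higher (Ldhb and Car9), 1 pathway enzyme was called and 1337 genes were called in all. The limma adjusted p was 0.0509 for Hk1, 0.0651 for Hk2 and 0.056 for Egln3. The deviations of same-numbered libraries had correlations over genes of 0.0287, 0.0359 and -0.00759, beside a mean of -0.00951 for different numbers. Of the 6 libraries, 2 correlated best with another number. Whether same-numbered cultures were handled together was not tested.

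With 3 libraries per group, no summed level or share can reach an exact permutation p under 0.1, and without read counts the error of low genes such as Aldoc, Eno2 and Ankrd37 is known only from the spread between libraries.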
